A study of Mus musculus with 28 samples.

Results

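The mitosis genes described here are 44 mouse genes that act while a cell divides: mitotic cyclins and phosphatases, kinases, checkpoint and anaphase proteins, centromere and passenger proteins, spindle motors and cytokinesis proteins. They were listed by name, the rule using no measured values, and each was followed through its brightest probe under that name. Of the 44, 42 had such a probe, and all 42 were well above background on 3 or more of 28 arrays, out of 19443 genes that met the same rule. Ndc80 and Nuf2, both of the kinetochore complex that binds microtubules, were on the array only under older names and entered as an alternative.

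A cell enters mitosis when cyclin A and cyclin B activate their kinase, helped by Cdc25 phosphatases and Polo and Aurora kinases. The spindle checkpoint then holds the anaphase-promoting complex until every chromosome is attached, after which Cdc20 and Ube2c drive the destruction of cyclins and the release of separase. Resting T cells have left the cell cycle, and stimulation through the T cell receptor and CD28 returns them to it, with growth and DNA replication ahead of the first division.

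RNA came from CD4 and CD8 T cells sorted from BALB/c mice, which were either young, at 4 months of age, or old, at 20 months. It was measured with Cy3 on 28 Agilent arrays of 1 colour. Cells were either unstimulated (0 h, 3 arrays for each of 4 groups) or held for 4, 12, 24 or 72 h on plates carrying antibodies to CD3 and CD28 (1 array for each of 16 groups). No engineered allele and no drug is given for any group, and the cells of all groups were sorted. The labels pool RNA from 4 independent sortings and call the repeated arrays replicates of pools, so p-values measure the spread between these samples, which may be technical. They also disagree on the gate: some describe cells with much CD44, others naive cells with little. In bulk RNA, fewer cells of a type and less RNA per cell cannot be told apart.

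Levels are log2 signals relative to the 75th percentile of each array, so 1 unit is a doubling of signal relative to that array; levels of different genes come from different probes and are not set against each other. Between 17251 and 28807 probes per array were well above background. The 6 CD4 arrays at 12, 24 and 72 h stood apart, with repeat-spot variation of 14.3% to 20.8% against 3.68% to 7.76% on the other 22. Arrays of a cell type at 0 h lay on 1 slide of 4 and 1 slide of 2, CD4 and CD8 cells never shared a slide, and each stimulated time had slides of its own, so that slide cannot be told apart from cell type or time. In the table of values that the authors deposited, 22 of 28 columns held the array of their label, but the 6 CD8 columns at 4, 12 and 24 h held another time of the same age: the 4 h columns held the 12 h arrays, the 12 h columns the 24 h arrays and the 24 h columns the 4 h arrays. The scanner files were followed here, because all 8 stimulated CD8 arrays correlated best with the CD4 arrays of their labelled time, and the CD8 counts at those times are given both ways. Pairs of arrays at 0 h within a group differed by an SD of 0.461 to 1.26 log2 units over all genes. Of the T cell markers, Cd3e lay between -0.42 and 2.06 on every array. The CD8 lineage list (2 genes) summed to 8.39 to 9.24 in CD8 cells at 0 h and to 2.55 to 3.54 in CD4 cells.

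Mitosis genes were at their lowest before 24 h and rose together between 12 and 24 h in both cell types. Over the 35 members measured on all arrays, the median level at 0 h was -3.28, -3.26 and -2.26 in young CD4 cells, -2.77, -2.95 and -0.76 in old CD4 cells, -1.53, -2.77 and -2.67 in young CD8 cells and -0.80, -0.86 and -1.32 in old CD8 cells. At 24 h it was 1.69 and 2.10 in young and old CD4 cells and 2.34 and 2.50 in young and old CD8 cells, above every array at 0, 4 or 12 h. Old CD4 replicate 3 at 0 h stood above the other CD4 arrays at 0 h. It lay on the slide with 2 arrays and, with young CD4 replicate 3, was read on the G2505B scanner. Summed plasma cell markers (4 of 5 genes) ran from 1.88 to 5.34 over the old and 1.53 to 2.89 over the young CD4 arrays at 0 h, and summed myeloid markers (11 of 12 genes) from 3.65 to 7.89 and 1.20 to 7.91; the part of such cells in the mitosis levels was not tested.

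**Figure D1:**
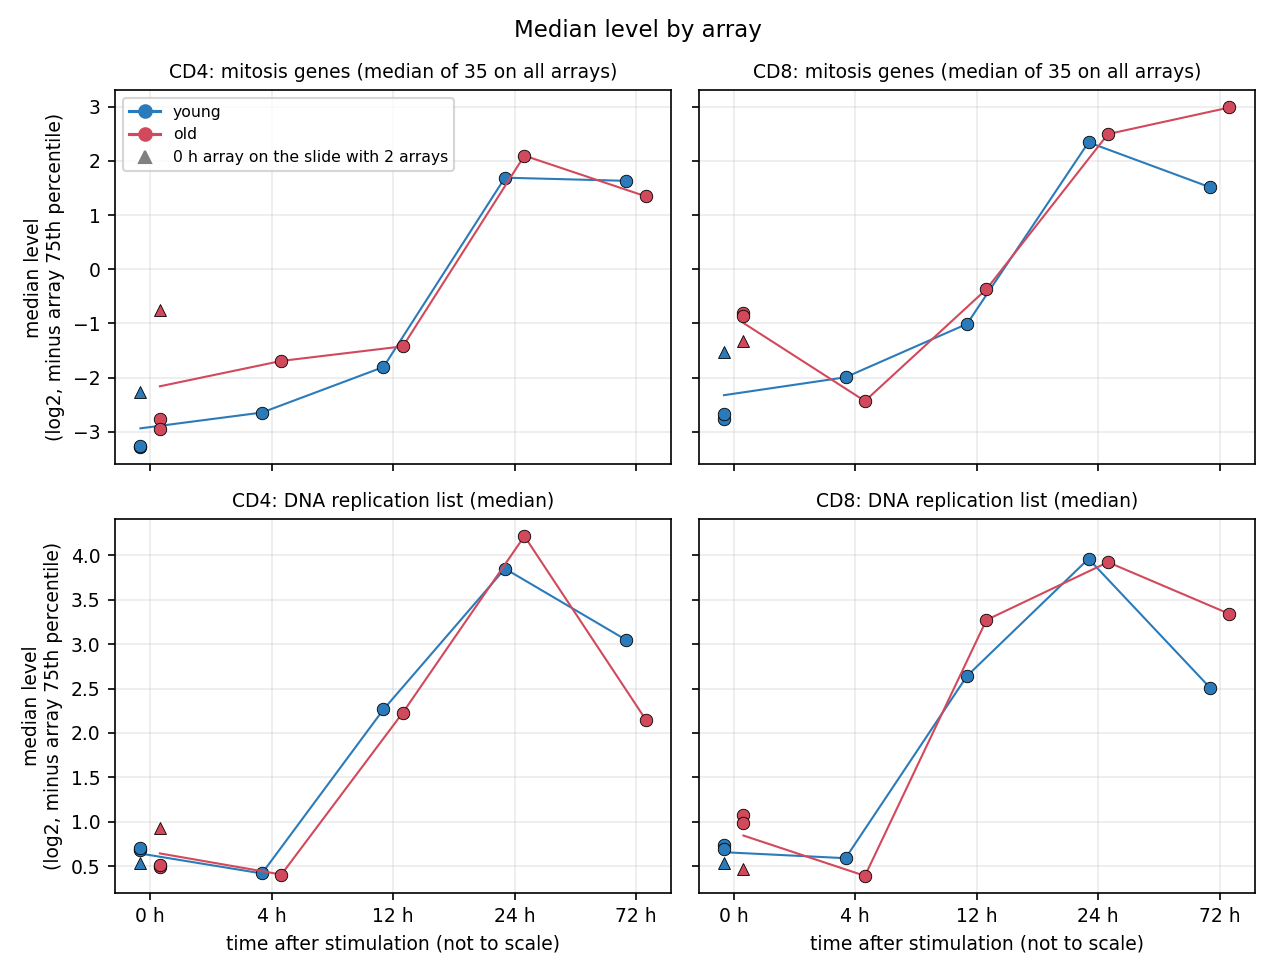
Median level per array (log2, minus the array's 75th percentile) of 35 mitosis genes (top) and of 33 DNA replication genes (bottom) against time, for young and old CD4 and CD8 cells; points are arrays, lines join group means, and triangles mark 0 h arrays on the slide with 2 arrays. Mitosis medians stay below 0 up to 12 h and lie between 1.34 and 2.99 at 24 and 72 h, whereas the replication medians have already risen at 12 h.

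Each time was compared with 0 h within a cell type in a limma fit of all 28 arrays with an age term, over 2 arrays at the later time and 6 at 0 h; the 4 times share the 0 h arrays, and a gene was called at a Benjamini-Hochberg adjusted p under 0.05 over all genes tested. At 24 h, 38 of 41 members rose in CD4 cells (25.1% of all genes rose) and 3 fell (19.5%). The 3 were Cenpa, Cdc25b, whose other probes did not fall then, and Bub3, through 1 spot not above background. Birc5 had no CD4 value then. In CD8 cells 37 of 42 rose at 24 h (16% of all genes) and none fell (17%); under the times of the deposited table none would have risen and 7 fallen at 24 h, with 37 rising at 12 h and 15 rising and 3 falling at 4 h. At 72 h 38 of 42 rose in CD4 cells (22.2%) and 38 of 42 in CD8 cells (13.6%), with none falling in either (all genes: 16.8% and 14.3%). The median change of members was 4.29 and 3.99 at 24 and 72 h in CD4 cells and 4.20 and 4.06 in CD8 cells, against 0.07, 0.21, -0.10 and 0.01 over all genes tested.

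**Figure D2:**
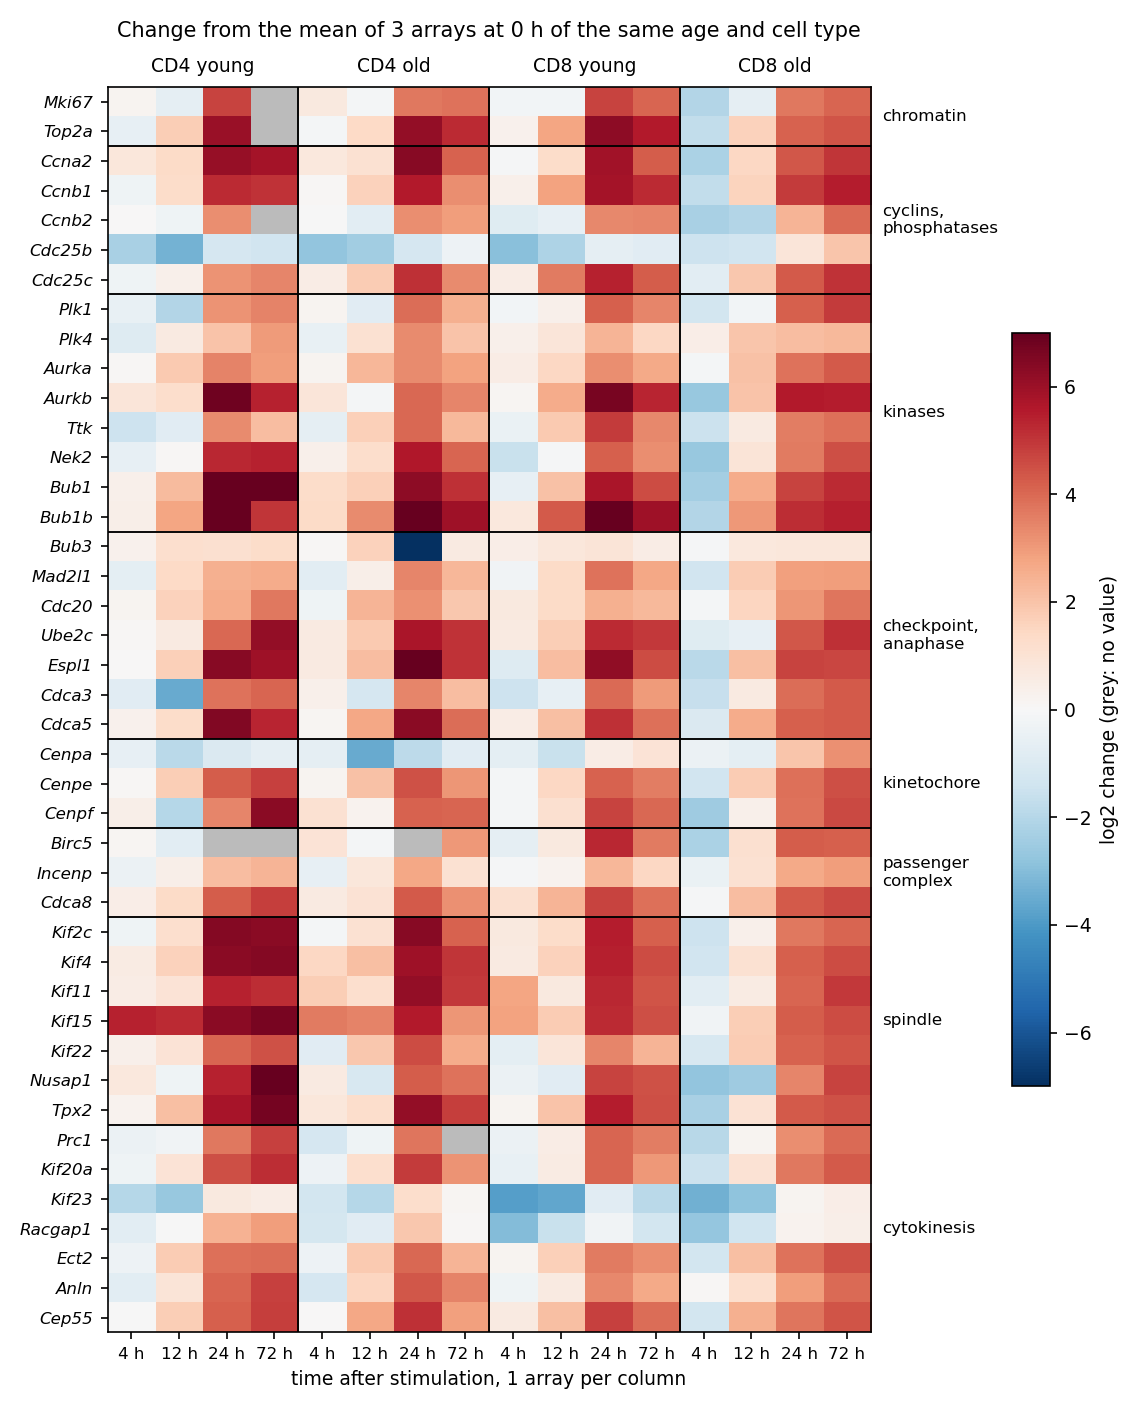
Change of each of 42 mitosis genes (rows, grouped by role) from the mean of the 3 arrays at 0 h of the same age and cell type, 1 array per column, as a log2 difference from blue (lower) to red (higher), with grey for missing spots. Most rows turn red at 24 h; Cdc25b, Kif23, Racgap1, Cenpa and Bub3 do not in at least 1 cell type, and the dark blue cell of Bub3 in old CD4 cells at 24 h is 1 spot not above background.

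The RefSeq promoter windows (GRCm38.p6, 250 bases before to 50 after the start) were searched for the NF-Y box CCAAT and for TTTGAA, the core of the cell cycle genes homology region, on both strands; their ends can overlap by 1 base. Of 44 members, 38 had a window. CCAAT was found in 27 of them (71.1%) against 41.1% of 27025 genes, TTTGAA in 28 (73.7%) against 20.2%, and both in 22 (57.9%) against 7.97%. Between 100 bases before and 50 after the start, TTTGAA was in 27 (71.1%) against 9.23%. The E2F-type motifs TTTCGCGC and TTTGGCGC were in 0 and 1 (2.63%) members against 0.374% and 0.585%, and the form TTCGAA was in 4 (10.5%) against 1.8%.

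The 100 bases before the start are printed 5′ to 3′ on the strand of the gene, with matches of either motif on either strand in capitals (ATTGG and TTCAAA are the matches on the opposite strand). Cdc20, Ube2c, Kif11, Kif22 and Top2a are shown because both motifs fall in this stretch, with TTTGAA downstream of a CCAAT; Ccnb2 because it carries 3 CCAAT boxes; Cdc25b because it did not rise with the rest; and Birc5 because it rose in CD8 cells at 24 h with neither motif in its window.
Cdc20: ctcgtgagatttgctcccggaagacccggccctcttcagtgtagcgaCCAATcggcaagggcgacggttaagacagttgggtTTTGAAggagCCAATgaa
Ube2c: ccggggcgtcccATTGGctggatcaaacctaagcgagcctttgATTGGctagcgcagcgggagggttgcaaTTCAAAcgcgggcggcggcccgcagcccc
Kif11: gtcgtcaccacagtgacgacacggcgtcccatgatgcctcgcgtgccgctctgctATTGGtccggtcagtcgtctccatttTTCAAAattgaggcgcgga
Kif22: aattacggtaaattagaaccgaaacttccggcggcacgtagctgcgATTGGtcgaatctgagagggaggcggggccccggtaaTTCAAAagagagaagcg
Top2a: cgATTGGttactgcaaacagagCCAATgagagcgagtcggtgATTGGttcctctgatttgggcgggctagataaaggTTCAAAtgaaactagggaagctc
Ccnb2: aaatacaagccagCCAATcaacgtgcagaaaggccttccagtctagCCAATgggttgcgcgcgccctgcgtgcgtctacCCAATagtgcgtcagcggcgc
Cdc25b: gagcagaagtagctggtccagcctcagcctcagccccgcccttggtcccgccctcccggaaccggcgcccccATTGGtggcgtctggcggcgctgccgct
Birc5: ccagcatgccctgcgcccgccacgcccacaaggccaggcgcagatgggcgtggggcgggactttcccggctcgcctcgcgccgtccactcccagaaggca
They lie at chr4:118437344-118437443 (minus strand), chr2:164769829-164769928 (plus strand), chr19:37376282-37376381 (plus strand), chr7:127042421-127042520 (minus strand), chr11:99024190-99024289 (minus strand), chr9:70421555-70421654 (minus strand), chr2:131186848-131186947 (plus strand) and chr11:117849137-117849236 (plus strand).

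In the printed stretch of Cdc20, TTTGAA starts 18 bases before the start, between CCAAT boxes at 53 and 8 bases. The distances of TTTGAA were 29 bases in Ube2c, 19 in Kif11, 17 in Kif22 and 23 in Top2a, and the nearest CCAAT upstream of it began at 57, 45, 54 and 58 bases. Ccnb2 has its CCAAT boxes at 87, 54 and 21 bases, and Cdc25b has 1 at 28 bases. Outside the printed stretch, Ccnb2 also holds TTTGAA at 167 bases before and 4 after the start, and Cdc25b holds TTCGAA at 7 after. The motifs did not separate members called higher at 72 h from those not called. Bub3, Cenpa, Kif23 and Racgap1, each without a call in a cell type then, hold both motifs. Plk4, Mad2l1 and Nusap1, called in both cell types, hold neither. A match describes letters in a window, not binding.

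**Figure D3:**
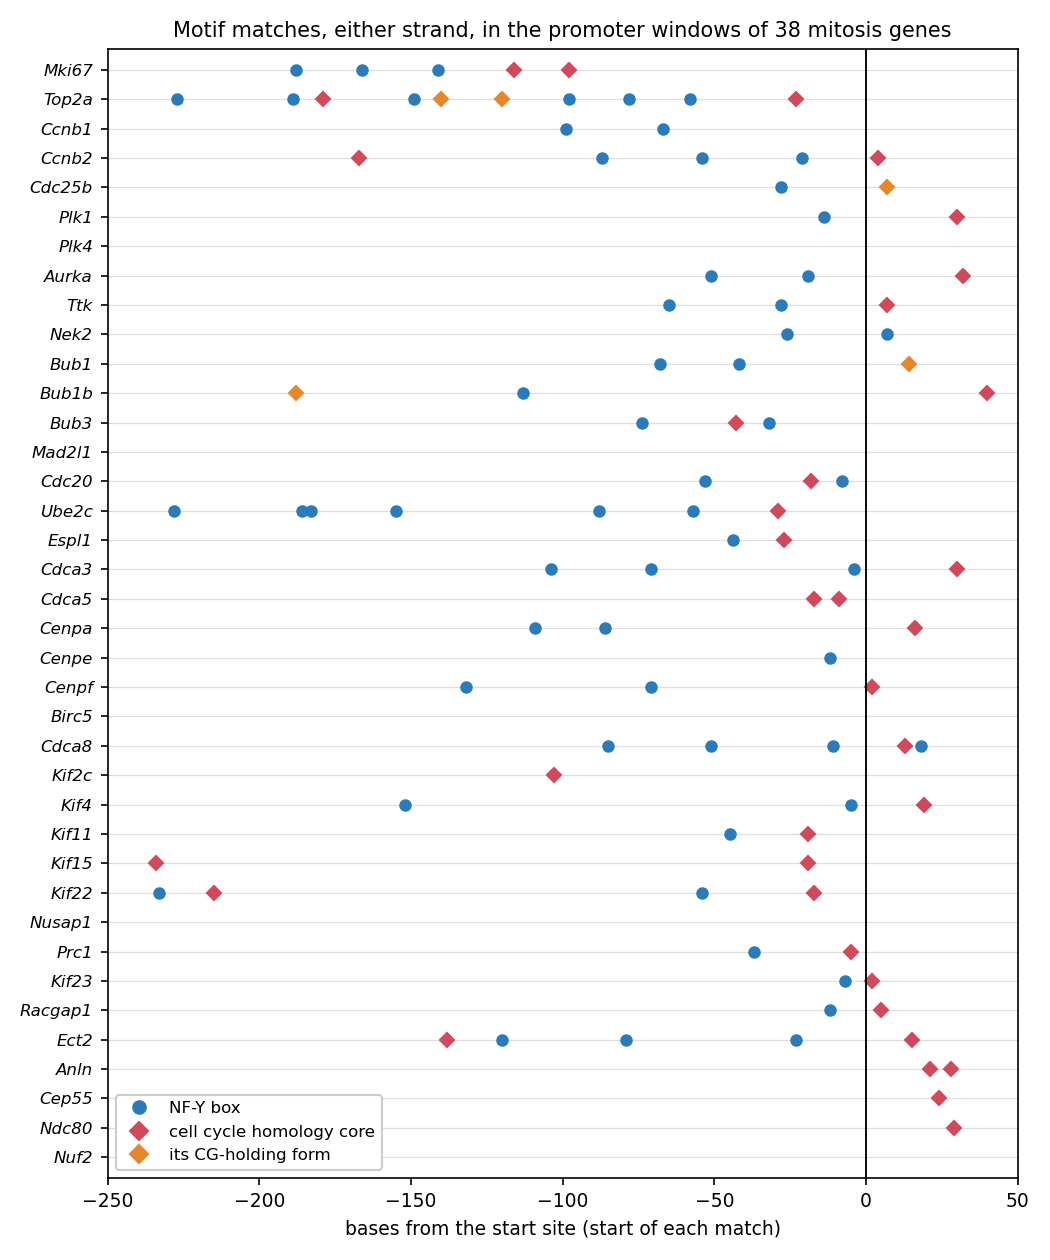
Positions of motif matches on either strand in the promoter windows of 38 mitosis genes, in bases from the start site: the NF-Y box (blue circles), the cell cycle genes homology core (red diamonds) and its form with a CG (orange diamonds). The NF-Y box occurs in 27 genes and the core in 28, most of them close to the start.

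Mki67 encodes Ki-67, the coat of mitotic chromosomes used to count cycling cells, and Top2a the topoisomerase that untangles sister chromatids. Mki67 gave 0.67, -0.53 and -0.52 at 0 h and -0.32, -0.30, 4.59 and 3.96 at 4, 12, 24 and 72 h in young CD8 cells. In old CD8 cells it gave 2.11, 2.10 and 0.65 at 0 h and -0.42, 0.99, 5.31 and 5.68 at 4, 12, 24 and 72 h. The 0 h groups overlapped, the old arrays reaching higher, and both ages were far above 0 h at 24 h. In CD4 cells Mki67 ranged from -1.32 to 1.41 at 0 h (6 arrays). Mki67 then gave, in young and old cells, -0.50 and 0.82 at 4 h, -1.35 and -0.01 at 12 h, 4.01 and 3.81 at 24 h and 3.96 in old cells alone at 72 h. It rose by 4.20 ± 0.60 (SE, adjusted p = 2.1e-05) in CD4 and 4.21 ± 0.60 (SE, adjusted p = 3.6e-05) in CD8 cells at 24 h, and a second Mki67 probe changed by 4.89 and 4.22. Top2a in CD4 cells spanned -3.26 to -1.73 at 0 h (6 arrays). Top2a then gave, in young and old cells, -3.26 and -2.86 at 4 h, -0.99 and -1.32 at 12 h, 3.34 and 3.47 at 24 h and 2.53 in old cells alone at 72 h. Its CD8 levels spanned -4.93 to -1.02 at 0 h (6 arrays). Top2a then gave, in young and old cells, -3.11 and -3.39 at 4 h, -0.65 and -0.05 at 12 h, 2.82 and 2.45 at 24 h and 2.11 and 2.71 at 72 h. Unlike Mki67, Top2a was already called in CD8 cells at 12 h, by 2.20 ± 0.63 (SE, adjusted p = 0.013).

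Cyclins rose strongly and the phosphatases split. In this role 4 of 5 members rose at 72 h in each cell type, with a median of 3.37 in CD4 and 4.63 in CD8 cells; the exception in both was Cdc25b. Ccnb1, cyclin B1, which activates Cdk1 at mitotic entry, gave -5.02, -4.96 and -3.93 at 0 h and -4.94, -3.36, 0.56 and 0.41 at 4, 12, 24 and 72 h in young CD4 cells. Old CD4 cells gave -4.66, -4.84 and -3.04 at 0 h and -4.11, -2.59, 1.36 and -0.92 at 4, 12, 24 and 72 h. Its levels in young CD8 cells were -3.76, -4.92 and -4.42 at 0 h and -3.996, -1.55, 1.44 and 0.84 at 4, 12, 24 and 72 h. Old CD8 cells showed -2.23, -2.23 and -3.73 at 0 h and -4.44, -1.17, 2.17 and 2.78 at 4, 12, 24 and 72 h. Every array at 24 and 72 h lay above every array at 0 h. Of the arrays at 0 h, 3 of 6 CD4 and 5 of 6 CD8 arrays were above background, so the fold is not exact; the change at 72 h was 4.16 ± 0.58 (SE, adjusted p = 1.7e-05) in CD4 and 5.36 ± 0.58 (SE, adjusted p = 1.8e-06) in CD8 cells.

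Ccna2, cyclin A2 of S phase and early mitosis, ranged in CD4 cells from -3.28 to -1.08 at 0 h (6 arrays). Ccna2 then gave, in young and old cells, -2.14 and -1.53 at 4 h, -1.59 and -1.16 at 12 h, 3.15 and 4.13 at 24 h and 2.89 and 1.90 at 72 h. In CD8 cells its range was -2.31 to 0.06 at 0 h (6 arrays). Ccna2 then gave, in young and old cells, -1.99 and -2.61 at 4 h, -0.68 and 1.02 at 12 h, 3.92 and 3.94 at 24 h and 2.30 and 4.62 at 72 h. It rose by 6.23 ± 0.58 (SE, adjusted p = 1.4e-07) and 5.10 ± 0.58 (SE, adjusted p = 2.4e-06) at 24 h. Ccnb2, the second B-type cyclin, ran in CD8 cells from 0.12 to 2.23 at 0 h (6 arrays). Ccnb2 then gave, in young and old cells, -0.40 and -0.47 at 4 h, -0.12 and -0.25 at 12 h, 3.79 and 4.15 at 24 h and 3.85 and 5.74 at 72 h. Its CD4 levels ran from -0.78 to 1.27 at 0 h (6 arrays). Ccnb2 then gave, in young and old cells, -0.11 and -0.02 at 4 h, -0.43 and -0.76 at 12 h, 3.11 and 3.27 at 24 h and 2.93 in old cells alone at 72 h. Ccnb2 fell first in CD8 cells, changing by -1.54 ± 0.53 (SE, adjusted p = 0.04) at 4 h, and rose to 3.69 ± 0.53 (SE, adjusted p = 5.3e-05) at 72 h. The call at 4 h was lost under 10 alternatives and kept under 7. Cdc25c, the phosphatase that switches on cyclin B-bound Cdk1, was above background on no CD8 array at 0 h, so its rise there is a bound: at least 2.1-fold at 12 h, 8.92-fold at 24 h and 7.7-fold at 72 h. In CD4 cells, where 2 of 6 arrays at 0 h were above background, it rose by 3.37 ± 0.61 (SE, adjusted p = 0.00026) at 72 h.

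Cdc25b, a phosphatase held to start Cdk1 activation at the centrosome, went the other way. It gave 2.78, 2.85 and 3.05 at 0 h and 0.63, -0.40, 1.72 and 1.53 at 4, 12, 24 and 72 h in young CD4 cells. Old CD4 cells gave 2.84, 2.84 and 3.10 at 0 h and 0.17, 0.52, 1.74 and 2.60 at 4, 12, 24 and 72 h. Young CD8 cells gave 3.56, 3.36 and 3.32 at 0 h and 0.50, 1.26, 2.79 and 2.63 at 4, 12, 24 and 72 h. Old CD8 cells gave 2.10, 2.48 and 2.03 at 0 h and 0.75, 0.87, 3.05 and 4.14 at 4, 12, 24 and 72 h. All arrays at 4 and 12 h lay below all arrays at 0 h of their cell type. It fell, changing by -2.51 ± 0.42 (SE, adjusted p = 0.00012) at 4 h and -2.85 ± 0.42 (SE, adjusted p = 2.5e-05) at 12 h in CD4 cells, and by -2.18 ± 0.42 (SE, adjusted p = 0.0006) and -1.74 ± 0.42 (SE, adjusted p = 0.0036) in CD8 cells. At 24 h it changed by -1.18 in CD4 cells, called as lower, a call lost under 6 alternatives and kept under 11. Other Cdc25b probes, above background on 28 and 19 arrays, changed by 0.45 and 0.44 there, but fell at 4 and 12 h in both cell types. At 72 h the change was -0.85 ± 0.42 (SE, adjusted p = 0.12) in CD4 and 0.58 ± 0.42 (SE, adjusted p = 0.33) in CD8 cells.

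All 8 mitotic kinases rose at 24 and 72 h in both cell types, with medians of 4.55 and 3.69 in CD4 and 4.20 and 4.02 in CD8 cells. Bub1, the checkpoint kinase at the kinetochore, had the largest change at 72 h in CD4 cells, 6.14 ± 0.86 (SE, adjusted p = 1.7e-05), and Bub1b, which encodes the checkpoint protein BubR1, the largest in CD8 cells, 5.66 ± 0.89 (SE, adjusted p = 9.8e-05). Both were dim at 0 h, with 2 of 6 CD4 arrays above background for each. Bub1 in CD4 cells spanned -6.86 to -2.11 at 0 h (6 arrays). Bub1 then gave, in young and old cells, -5.19 and -2.88 at 4 h, -3.36 and -2.49 at 12 h, 1.65 and 2.10 at 24 h and 1.63 and 0.93 at 72 h. In CD8 cells Bub1 spanned -4.46 to -2.08 at 0 h (6 arrays). Bub1 then gave, in young and old cells, -4.36 and -4.96 at 4 h, -1.74 and 0.02 at 12 h, 1.93 and 2.14 at 24 h and 0.80 and 2.67 at 72 h. Bub1b spanned, in CD4 cells, -6.39 to -2.17 at 0 h (6 arrays). Bub1b then gave, in young and old cells, -4.14 and -3.39 at 4 h, -1.80 and -1.42 at 12 h, 2.47 and 2.45 at 24 h and 0.40 and 1.19 at 72 h. In CD8 cells it spanned -5.42 to -2.27 at 0 h (6 arrays). Bub1b then gave, in young and old cells, -4.05 and -5.07 at 4 h, -0.51 and 0.02 at 12 h, 2.39 and 2.18 at 24 h and 1.11 and 2.41 at 72 h. The 12 h arrays of Bub1b already lay above all arrays at 0 h in both cell types, and it rose then by 3.04 ± 0.89 (SE, adjusted p = 0.011) and 3.66 ± 0.89 (SE, adjusted p = 0.0042).

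Aurkb, Aurora B, corrects faulty chromosome attachments within the passenger complex. Its CD4 levels ranged from -6.63 to -0.60 at 0 h (6 arrays). Aurkb then gave, in young and old cells, -4.25 and -2.53 at 4 h, -3.91 and -3.52 at 12 h, 1.69 and 0.66 at 24 h and 0.25 and 0.07 at 72 h. Its CD8 levels ranged from -4.95 to -2.57 at 0 h (6 arrays). Aurkb then gave, in young and old cells, -4.18 and -5.59 at 4 h, -1.71 and -0.98 at 12 h, 2.34 and 2.62 at 24 h and 1.04 and 2.55 at 72 h. The spread at 0 h was wide and the arrays at 24 and 72 h stood clear of it; the rise at 24 h was 5.41 ± 1.03 (SE, adjusted p = 0.00029) in CD4 and 6.10 ± 1.03 (SE, adjusted p = 0.00015) in CD8 cells. Aurka, which matures centrosomes, was among the early members: it rose by 2.06 ± 0.37 (SE, adjusted p = 0.00018) in CD4 and 1.76 ± 0.37 (SE, adjusted p = 0.0012) in CD8 cells at 12 h. Plk4, the centriole-duplicating kinase, rose at 12 h by 0.86 ± 0.33 (SE, adjusted p = 0.042) and 1.39 ± 0.33 (SE, adjusted p = 0.0031). Nek2, which splits centrosomes, rose by 5.43 ± 0.68 (SE, adjusted p = 4e-06) and 3.91 ± 0.68 (SE, adjusted p = 0.00021) at 24 h. Ttk, the checkpoint kinase Mps1, was called at 72 h in CD4 cells at 2.21 ± 0.64 (SE, adjusted p = 0.01), but neither array was above background then.

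Plk1, the Polo kinase that drives mitotic entry and exit, gave -0.55, -0.55 and 0.13 at 0 h and -0.83, -2.39, 2.80 and 3.16 at 4, 12, 24 and 72 h in young CD4 cells. Old CD4 cells gave -0.58, -0.64 and -0.06 at 0 h and -0.21, -1.23, 3.50 and 2.06 at 4, 12, 24 and 72 h. Plk1 was low on both CD4 arrays at 12 h, a change of -1.44 ± 0.42 (SE, adjusted p = 0.011), and high at 24 and 72 h. In young CD8 cells it gave 0.49, -0.33 and -0.50 at 0 h and -0.32, 0.22, 4.04 and 3.32 at 4, 12, 24 and 72 h. In old CD8 cells it gave 0.47, 0.54 and 0.27 at 0 h and -0.83, 0.26, 4.63 and 5.31 at 4, 12, 24 and 72 h. The CD8 arrays at 12 h did not lie below those at 0 h, with a change of 0.09 ± 0.42 (SE, adjusted p = 0.91). The difference between the cell types at 12 h was 1.52 ± 0.60 (SE, adjusted p = 0.18) and not called. At 24 h Plk1 had risen by 3.52 ± 0.42 (SE, adjusted p = 2.3e-06) and 4.18 ± 0.42 (SE, adjusted p = 7.7e-07).

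Of the 7 checkpoint and anaphase members 6 were called higher at 72 h in each cell type, all but Bub3, whose SE is taken up below. Cdc20, the activator of the anaphase-promoting complex, ranged in CD4 cells from 1.53 to 2.31 at 0 h (6 arrays). Cdc20 then gave, in young and old cells, 1.75 and 1.75 at 4 h, 3.17 and 4.40 at 12 h, 4.19 and 5.23 at 24 h and 5.25 and 3.93 at 72 h. In CD8 cells it ranged from 2.04 to 2.78 at 0 h (6 arrays). Cdc20 then gave, in young and old cells, 2.98 and 2.49 at 4 h, 3.63 and 4.12 at 12 h, 4.81 and 5.71 at 24 h and 4.59 and 6.35 at 72 h. It rose early, by 1.99 ± 0.40 (SE, adjusted p = 0.00059) and 1.42 ± 0.40 (SE, adjusted p = 0.011) at 12 h, with no overlap between the 12 h and 0 h arrays of a cell type. Ube2c, the ubiquitin-conjugating enzyme of that complex, lay in CD4 cells at -3.92 to -1.76 at 0 h (6 arrays). Ube2c then gave, in young and old cells, -2.62 and -2.57 at 4 h, -2.09 and -1.33 at 12 h, 1.31 and 2.54 at 24 h and 3.46 and 1.86 at 72 h. Its CD8 values lay at -3.41 to -0.80 at 0 h (6 arrays). Ube2c then gave, in young and old cells, -2.21 and -2.24 at 4 h, -1.15 and -1.94 at 12 h, 2.39 and 2.99 at 24 h and 2.10 and 3.71 at 72 h. Ube2c was not called at 12 h and rose by 4.87 ± 0.65 (SE, adjusted p = 7.9e-06) and 4.80 ± 0.65 (SE, adjusted p = 1.7e-05) at 24 h.

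Espl1 is separase, the protease that cuts cohesin, and Cdca5 is sororin, which protects cohesin. Espl1 in CD4 cells spanned -6.03 to -4.33 at 0 h (6 arrays). Espl1 then gave, in young and old cells, -5.03 and -4.87 at 4 h, -3.44 and -3.37 at 12 h, 1.26 and 1.67 at 24 h and 0.88 and -0.45 at 72 h. In CD8 cells it spanned -4.48 to -2.34 at 0 h (6 arrays). Espl1 then gave, in young and old cells, -5.16 and -4.82 at 4 h, -2.10 and -0.79 at 12 h, 1.92 and 1.81 at 24 h and 0.28 and 1.74 at 72 h. On the 0 h arrays it was above background on 2 of 6 in CD4 and 4 of 6 in CD8 cells and at 4 h on none in CD8 cells, where it was at least 2.44-fold lower than at 0 h (adjusted p = 0.035). That call was lost under 10 alternatives, kept under 6 and reversed under 1. Cdca5 in CD4 cells spanned -1.35 to 0.06 at 0 h (5 arrays). Cdca5 then gave, in young and old cells, -1.06 and -0.69 at 4 h, -0.07 and 1.91 at 12 h, 5.13 and 5.50 at 24 h and 4.00 and 3.13 at 72 h. Its CD8 levels were -0.64 to 1.44 at 0 h (6 arrays). Cdca5 then gave, in young and old cells, 0.42 and 0.07 at 4 h, 2.00 and 3.66 at 12 h, 5.02 and 5.29 at 24 h and 3.76 and 5.38 at 72 h. Both were called at 12 h, Espl1 by 1.90 and 2.15 and Cdca5 by 1.99 and 2.33 in CD4 and CD8 cells. Mad2l1, the checkpoint protein Mad2, rose by 2.95 ± 0.54 (SE, adjusted p = 0.00019) and 3.34 ± 0.54 (SE, adjusted p = 9.6e-05) at 24 h, and Cdca3, a trigger of mitotic entry, by 3.61 ± 0.68 (SE, adjusted p = 0.00028) and 3.92 ± 0.68 (SE, adjusted p = 0.00021).

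Bub3, which recruits the checkpoint kinases to kinetochores, was not called at 72 h. It gave 3.77, 3.75 and 3.32 at 0 h and 3.92, 4.81, 4.72 and 4.92 at 4, 12, 24 and 72 h in young CD4 cells. Old CD4 cells gave 3.59, 3.57 and 2.87 at 0 h and 3.44, 4.95, -6.31 and 3.97 at 4, 12, 24 and 72 h. The value of -6.31 at 24 h was 1 spot not above background, on which its call as lower in CD4 cells rests (-4.27 ± 1.35 (SE, adjusted p = 0.015)); without that array the change was 1.06 (adjusted p = 0.034). CD8 cells showed 3.48, 3.83 and 3.62 at 0 h and 4.11, 4.46, 4.52 and 4.13 at 4, 12, 24 and 72 h in young CD8 cells. Bub3 in old CD8 cells gave 4.11, 4.05 and 3.43 at 0 h and 3.75, 4.58, 4.67 and 4.67 at 4, 12, 24 and 72 h. At 72 h the change was 0.96 ± 1.35 (SE, adjusted p = 0.61) in CD4 and 0.65 ± 1.35 (SE, adjusted p = 0.76) in CD8 cells. The spot at -6.31 also enters this SE in both cell types, because the fit shares 1 estimate of the spread over all arrays. Both arrays at 72 h lay above all arrays at 0 h in each cell type, so the missing calls do not show a level Bub3. The 2 other Bub3 probes above background disagreed, changing by 1.92 and -2.13 at 24 h in CD4 cells.

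Cenpe, the kinesin that carries chromosomes to the spindle equator, and Cenpf, a kinetochore protein, rose with the rest: Cenpe by 4.33 ± 0.47 (SE, adjusted p = 7.2e-07) and 4.01 ± 0.47 (SE, adjusted p = 3.4e-06) and Cenpf by 3.79 ± 0.83 (SE, adjusted p = 0.001) and 4.25 ± 0.83 (SE, adjusted p = 0.00056) at 24 h. The passenger complex, which centres on Aurora B, held 3 further members. Birc5, survivin, ranged in CD8 cells from 0.50 to 2.60 at 0 h (6 arrays). Birc5 then gave, in young and old cells, 0.33 and 0.02 at 4 h, 1.63 and 3.39 at 12 h, 6.23 and 6.47 at 24 h and 4.58 and 6.44 at 72 h. Its CD4 spots were flagged on 3 of the 4 arrays at 24 and 72 h. Incenp, the scaffold, rose by 2.44 ± 0.33 (SE, adjusted p = 7.4e-06) and 2.48 ± 0.33 (SE, adjusted p = 1.2e-05) at 24 h, less than Cdca8, borealin, at 4.29 ± 0.42 (SE, adjusted p = 2.3e-07) and 4.51 ± 0.42 (SE, adjusted p = 3.1e-07). That order of changes was not tested between the genes.

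All 7 spindle motor and microtubule members rose at 24 and 72 h in both cell types, and theirs was the highest role median in CD4 cells, 5.94 at 24 h and 5.23 at 72 h; in CD8 cells it was 4.69 and 4.54. Kif11, the motor that pushes spindle poles apart, lay in CD4 cells at -7.23 to -4.32 at 0 h (4 arrays). Kif11 then gave, in young and old cells, -4.88 and -4.44 at 4 h, -4.47 and -5.02 at 12 h, -0.05 and -0.04 at 24 h and -0.28 and -1.23 at 72 h. Its CD8 levels lay at -6.44 to -3.61 at 0 h (6 arrays). Kif11 then gave, in young and old cells, -2.97 and -5.08 at 4 h, -5.08 and -3.77 at 12 h, -0.46 and -0.27 at 24 h and -1.37 and 0.58 at 72 h. The 0 h spots were dim, 4 of 6 in CD4 and 2 of 6 in CD8 cells being above background. Kif4 and Kif22, chromosome-arm motors, rose at 24 h by 6.12 and 4.33 in CD4 and 4.81 and 3.77 in CD8 cells, Kif2c, which depolymerises microtubules, by 6.40 and 4.58, and the spindle assembly factors Tpx2 and Nusap1 by 5.97 and 4.80 in CD4 and 4.89 and 4.07 in CD8 cells.

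Kif15, a second pole-separating motor, was the only member called higher at 4 h in CD4 cells. Its levels were -5.55, -6.21 and -4.13 at 0 h and 0.11, -0.10, 1.04 and 1.35 at 4, 12, 24 and 72 h in young CD4 cells. Kif15 in old CD4 cells gave -5.33, -4.63 and -2.43 at 0 h and -0.52, -0.64, 1.42 and -1.03 at 4, 12, 24 and 72 h. Both 4 h arrays stood above all 6 arrays at 0 h, 2 of which were above background, for a change of 4.51 ± 0.83 (SE, adjusted p = 0.00033). In CD8 cells the change at 4 h was 1.29 ± 0.83 (SE, adjusted p = 0.29). A second Kif15 probe, above background on 3 of 28 arrays, changed by -0.51 at 4 h in CD4 cells, so the early rise rests on 1 probe.

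Among the 7 cytokinesis members the pair that forms centralspindlin, Racgap1 and Kif23, which bundles the central spindle and places the cleavage furrow, was the exception: neither was called higher at 24 or 72 h in CD8 cells, where the other 5 rose. Prc1, which crosslinks the same microtubules, rose by 3.71 ± 0.36 (SE, adjusted p = 2.9e-07) and 3.66 ± 0.36 (SE, adjusted p = 7.8e-07) at 24 h, and Kif20a, which carries passengers there, by 4.70 ± 0.44 (SE, adjusted p = 1.5e-07) and 3.89 ± 0.44 (SE, adjusted p = 2.4e-06). Ect2, the exchange factor that Racgap1 recruits, rose by 3.94 ± 0.45 (SE, adjusted p = 1.4e-06) and 3.72 ± 0.45 (SE, adjusted p = 5.1e-06), and Cep55, the abscission scaffold, by 4.65 ± 0.61 (SE, adjusted p = 6.1e-06) and 4.27 ± 0.61 (SE, adjusted p = 2.7e-05). A second Cep55 probe, above background on 19 arrays, changed by only 0.075 in CD4 and 1.245 in CD8 cells at 24 h. Anln, anillin of the contractile ring, was above background on no array at 0 h, so its rise is at least 5.96-fold at 24 h and 5.64-fold at 72 h in CD4 cells and at least 3.11-fold and 3.52-fold in CD8 cells.

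Racgap1 gave -3.40, -3.28 and -2.21 at 0 h and -3.70, -2.99, -0.52 and -0.03 at 4, 12, 24 and 72 h in young CD4 cells. Old CD4 cells gave -2.02, -1.87 and -1.72 at 0 h and -3.12, -2.67, 0.04 and -1.78 at 4, 12, 24 and 72 h. In young CD8 cells it gave 1.44, 0.89 and 0.88 at 0 h and -1.98, -0.49, 0.83 and -0.19 at 4, 12, 24 and 72 h. Old CD8 cells had 0.93, 0.92 and 1.27 at 0 h and -1.65, -0.37, 1.30 and 1.44 at 4, 12, 24 and 72 h. The unstimulated CD8 arrays overlapped the CD8 arrays at 24 h, and all of them lay above all CD4 arrays. At 24 h Racgap1 rose by 2.18 ± 0.46 (SE, adjusted p = 0.00072) in CD4 cells and changed by 0.01 ± 0.46 (SE, adjusted p = 0.99) in CD8 cells. Its 4 h arrays in CD8 cells lay below all CD8 arrays at 0 h, a change of -2.87 ± 0.46 (SE, adjusted p = 0.00011).

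Kif23 had 0.23, 0.22 and 0.31 at 0 h and -1.73, -2.40, 0.94 and 0.78 at 4, 12, 24 and 72 h in young CD4 cells. Kif23 in old CD4 cells gave -0.49, -0.53 and 0.06 at 0 h and -1.63, -2.34, 0.92 and -0.17 at 4, 12, 24 and 72 h. Its CD8 levels were 1.85, 2.05 and 2.07 at 0 h and -1.89, -1.63, 1.20 and 0.09 at 4, 12, 24 and 72 h in young CD8 cells. Kif23 in old CD8 cells gave 1.16, 1.31 and 1.43 at 0 h and -2.07, -1.51, 1.51 and 1.76 at 4, 12, 24 and 72 h. Both cell types lost Kif23 signal at 4 and 12 h and had regained it at 24 h except in young CD8 cells, whose arrays at 24 and 72 h lay below all 3 at 0 h. The changes at 4 h were -1.65 ± 0.35 (SE, adjusted p = 0.0013) in CD4 and -3.63 ± 0.35 (SE, adjusted p = 5.6e-07) in CD8 cells, and at 12 h -2.34 ± 0.35 (SE, adjusted p = 3.4e-05) and -3.21 ± 0.35 (SE, adjusted p = 2.7e-06). At 72 h it stood 0.34 ± 0.35 (SE, adjusted p = 0.48) from 0 h in CD4 and -0.72 ± 0.35 (SE, adjusted p = 0.14) in CD8 cells. Second probes of both genes moved in the same directions at 4 h in CD8 cells.

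At 0 h, CD8 cells were compared with CD4 cells over 6 arrays each. Of 42 members 7 were higher in CD8 cells (8.71% of all genes) and none lower (4.91%), with a median difference of 0.79 against 0.02 over all genes. Racgap1 differed by 3.47 ± 0.22 (SE, adjusted p = 9.2e-06) and Kif23 by 1.68 ± 0.13 (SE, adjusted p = 4.2e-05), and only in these did the arrays of the cell types not overlap. Espl1 (1.71), Cdca5 (1.57), Ccna2 (1.42), Kif20a (0.86) and Cdc20 (0.67) were called with overlapping arrays. The count was 2 with slide as a random block, Racgap1 and Kif23, and 4 with arrays scaled to the median. It ran from 3 to 19 when single arrays were left out: 19 without old CD4 replicate 3, 3 without young CD4 replicate 2, and 4 without old CD4 replicate 1 or 2, young CD4 replicate 1 or old CD8 replicate 1.

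The changes from 0 h were then compared between CD8 and CD4 cells. Most CD4 arrays at 0 h were read on another scanner than the stimulated CD4 arrays, whereas all CD8 arrays shared a scanner. A difference in change cannot be told apart from scanner. No member differed at 4 h (all genes: 0.0617% called, 0.0411% lower in CD8 cells; 1 higher and 5 lower members at an unadjusted p under 0.05) or at 12 h (1.18%; 3 and 1 unadjusted). At 24 h 1 member was higher and none lower (1.89% of all genes higher, 4.77% in either direction), and likewise at 72 h (3.12% and 8.14%). It was Cenpa, the histone H3 variant that marks centromeres: its change was higher in CD8 cells by 2.63 ± 0.68 (SE, adjusted p = 0.036) at 24 h and 2.79 ± 0.68 (SE, adjusted p = 0.018) at 72 h. Racgap1 differed by -2.17 ± 0.65 (SE, adjusted p = 0.059) and -1.94 ± 0.65 (SE, adjusted p = 0.071), which was not called.

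Cenpa in CD4 cells gave 0.42, 0.31 and 1.01 at 0 h and 0.03, -1.32, -0.43 and -0.04 at 4, 12, 24 and 72 h in young CD4 cells. Cenpa in old CD4 cells gave 0.49, 0.44 and 2.27 at 0 h and 0.43, -2.46, -0.75 and 0.28 at 4, 12, 24 and 72 h. In CD8 cells it gave 0.91, 0.51 and 0.49 at 0 h and -0.05, -0.90, 1.13 and 1.61 at 4, 12, 24 and 72 h in young CD8 cells. Cenpa in old CD8 cells gave 0.05, 0.21 and 0.19 at 0 h and -0.27, -0.55, 2.08 and 3.34 at 4, 12, 24 and 72 h. CD4 arrays stayed within or below their 0 h range, and CD8 arrays passed theirs at 24 and 72 h. Against 0 h, Cenpa fell, changing by -2.71 ± 0.48 (SE, adjusted p = 0.00018) at 12 h and -1.41 ± 0.48 (SE, adjusted p = 0.023) at 24 h in CD4 cells and rose by 2.08 ± 0.48 (SE, adjusted p = 0.003) at 72 h in CD8 cells. With slide as a random block both differences in change lost their call (adjusted p = 0.418 at 24 h and 0.222 at 72 h by limma). The difference at 24 h was also lost without any 1 of the 4 arrays at 24 h (adjusted p = 0.053 to 0.27) or of old CD8 replicates 1 and 2 at 0 h (0.059 and 0.057), and at 72 h without the young CD4 array (adjusted p = 0.058) or the old CD8 array (0.22) at 72 h (both by limma); the CD4 arrays concerned are among the 6 with high repeat-spot variation.

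**Figure D4:**
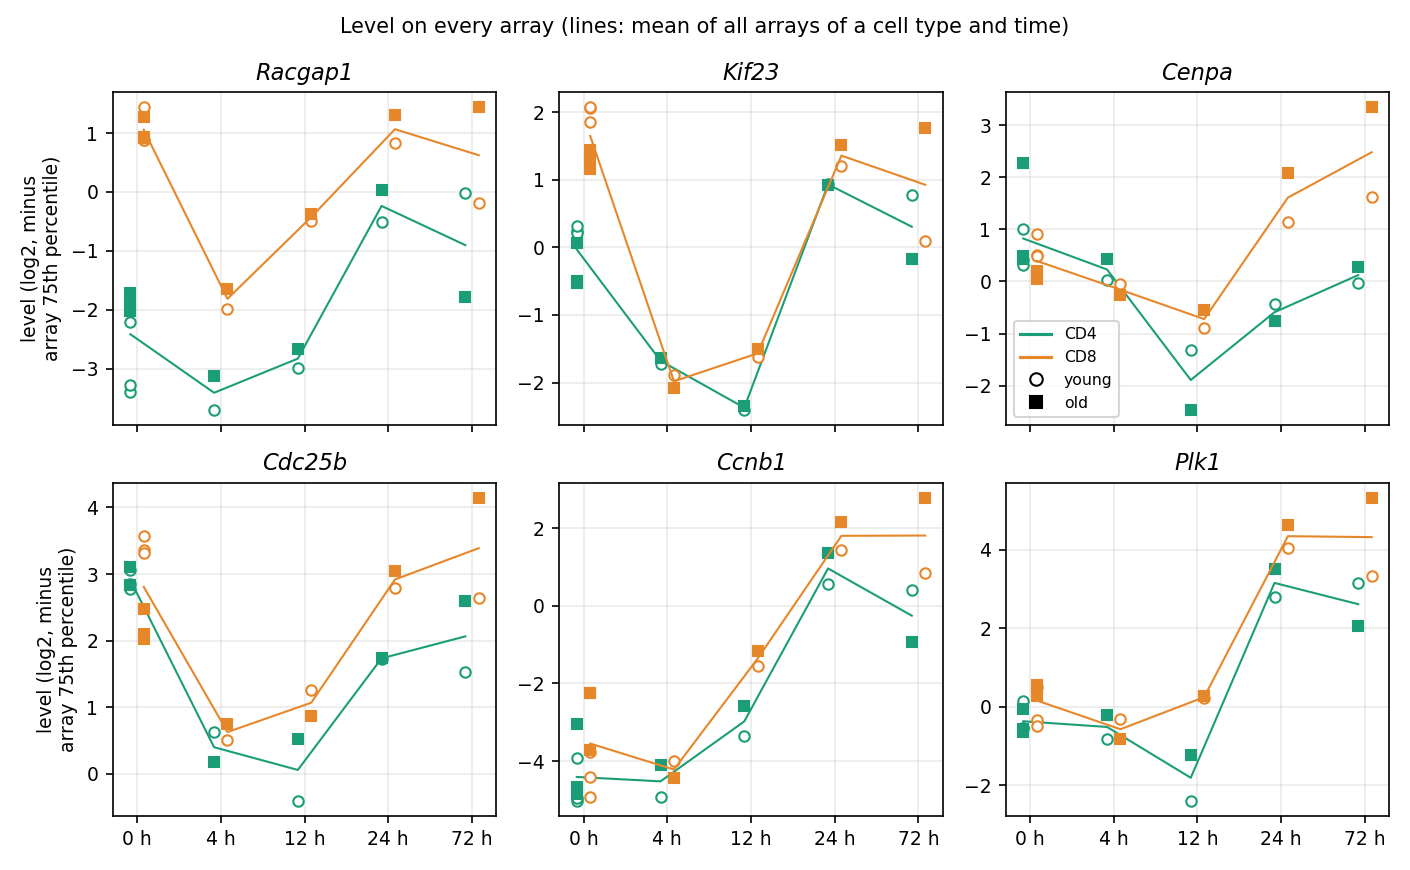
Levels of Racgap1, Kif23, Cenpa, Cdc25b, Ccnb1 and Plk1 on every array (log2, minus the array's 75th percentile) by time, CD4 in green and CD8 in orange, young as open circles and old as filled squares; lines join the mean of all arrays of a cell type and time. Racgap1 and Kif23 start higher in CD8 cells and dip at 4 h, Cenpa rises past its 0 h level only in CD8 cells, and Ccnb1 rises in both.

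The early time points held both falls and first rises. At 4 h, 1 member rose and 2 fell in CD4 cells (15.6% and 16.4% of all genes), and none rose and 7 fell in CD8 cells (14.1% and 13%). The 7 were Kif23, Racgap1, Cdc25b, Nek2 (-2.09 ± 0.68 (SE, adjusted p = 0.028)), Ccnb2, Espl1 and Prc1 (-1.17 ± 0.36 (SE, adjusted p = 0.021)). Without the old CD8 array at 4 h 3 remained called and without the young one 4, and the medians of the old and young array were -2.43 and -1.99, below all old and within the young arrays at 0 h. At 12 h, 15 rose and 5 fell in CD4 cells (24.2% and 16.3%), and 15 rose and 3 fell in CD8 cells (15.9% and 14.1%).

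The 5 that fell in CD4 cells at 12 h were Cdc25b, Cenpa, Cdca3 (-2.36 ± 0.68 (SE, adjusted p = 0.0097)), Kif23 and Plk1; a second Cdca3 probe changed by 0.87 there. In CD8 cells Kif23, Cdc25b and Racgap1 (-1.48 ± 0.46 (SE, adjusted p = 0.019)) fell. Anln, called higher at 12 h in CD4 cells, was above background on no array on either side and has no level. Counts at 12 h hung on single arrays: the calls in CD4 cells were 7 without the old and 12 without the young array, and those in CD8 cells 7 and 9. Calls fell to 11 (3 higher, 8 lower) in CD4 cells when only the 0 h arrays read on the same scanner were kept, a comparison added after the data were seen.

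By the test, the first call as higher came at 4, 12, 24 and 72 h for 1, 14, 23 and 1 members in CD4 cells and for 0, 15, 22 and 1 in CD8 cells, and 3 and 4 members were never called higher. Of 37 members with an onset in both cell types, 26 had the same time, 6 were earlier in CD8 cells and 5 later. The member first called at 72 h in CD4 cells was Birc5, which is also among the 6. It had no CD4 value at 24 h and only that of the old array at 72 h, so an onset at 24 h could not be seen. Within an age there is 1 array per time, so onset was described as the first time at which a member was 1 log2 unit or more above the highest of its 3 arrays at 0 h and above background. By 12 h this held for 12 members in young and 7 in old CD4 cells, and for 14 in young and 18 in old CD8 cells. Between ages, 33 of 38 members in CD4 cells had the same onset and 5 were later in old cells. Of those, Top2a, Bub1b, Tpx2 and Ect2 stood 1 log2 unit or more above old replicates 1 and 2 at 12 h. They were less than 1 unit above replicate 3, the array that stood above the other CD4 arrays at 0 h. Mad2l1 was less than 1 unit above all 3. In CD8 cells 24 of 37 members had the same onset, 8 were earlier and 5 later in old cells. These counts carry no test and moved with the threshold.

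Age at 0 h was compared over 3 arrays per group. In CD4 cells no member was called, against 1.2% of all genes higher and 0.504% lower in old cells by limma; 2 were higher and 2 lower at an unadjusted p under 0.05, and the median difference was 0.46. In CD8 cells 1 member was higher and 1 lower in old cells (1.66% and 0.509% of all genes), 13 and 2 at an unadjusted p, with 38 of 42 differences above 0 and a median of 1.20 (-0.05 over all genes). For the age difference itself no member was called between the cell types (all genes: 0.0514% higher, 0% lower; 3 and 2 members unadjusted). These counts moved with slide as a block, under which 4 members were called in CD4 cells, 5 in CD8 cells and 3 for the age difference between them.

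Prc1 was the member called higher in old CD8 cells. It gave -0.61, -1.36 and -1.27 at 0 h and -1.47, -0.58, 3.01 and 2.50 at 4, 12, 24 and 72 h in young CD8 cells. Prc1 in old CD8 cells gave 0.90, 0.69 and 0.20 at 0 h and -1.35, 0.80, 3.84 and 4.55 at 4, 12, 24 and 72 h. In CD4 cells it gave -1.48, -1.52 and -0.56 at 0 h and -1.58, -1.44, 2.50 and 3.62 at 4, 12, 24 and 72 h in young CD4 cells. Prc1 in old CD4 cells gave -0.40, -0.41 and 0.10 at 0 h and -1.42, -0.54 and 3.50 at 4, 12 and 24 h. The 3 old arrays lay above the 3 young ones at 0 h in both cell types, by 1.68 ± 0.33 (SE, adjusted p = 0.029) in CD8 and 0.95 ± 0.33 (SE, adjusted p = 0.19) in CD4 cells. The CD8 call was lost without old replicate 1 or 2 or young replicate 2 or 3 (adjusted p = 0.125 to 0.143). Cdc25b was lower in old CD8 cells, by -1.21 ± 0.18 (SE, adjusted p = 0.0076), with no overlap, and differed by 0.03 ± 0.18 (SE, adjusted p = 0.95) in CD4 cells. Its CD8 call was lost under 2 alternatives (adjusted p up to 0.256 by limma) and kept under 13. Other Cdc25b probes, above background on 28 and 19 arrays, differed less between ages in CD8 cells, by -0.65 and -0.09.

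The CD8 age difference was also read within slides, and the markers of other cells are given beside it. On the slide with 4 arrays the median of members was 1.64 higher in old CD8 cells, with 39 of 42 above 0, and on the slide with 2 arrays it was -0.11, with 15 of 42 above 0. Within those slides Prc1 differed by 2.11 and 0.81 and Cdc25b by -1.05 and -1.54 (old minus young). Summed levels of other cells' markers were higher in old than in young CD8 arrays without overlap: B cell markers (11 of 12 summed) at 3.40 to 4.27 against 3.00 to 3.09, myeloid markers (11 of 12) at 5.41 to 7.55 against 2.93 to 5.28 and plasma cell markers (4 of 5) at 2.76 to 3.66 against 0.45 to 2.46. NK cell markers (5 of 6) were at 7.05 to 7.78 against 6.69 to 6.84 and CD4 lineage markers (3 of 3) at -0.50 to -0.36 against -2.09 to -1.89, 1 of these 3 genes being called higher in old cells. Of single markers, 2 of 12 B cell, 1 of 5 plasma cell, 0 of 11 myeloid and 0 of 5 NK cell genes were called higher in old CD8 cells. Elane in both ages and Pax5 in young cells were above background on no CD8 array at 0 h. In CD4 cells at 0 h, B cell markers summed to 3.18 to 3.20 in old and 0.45 to 1.82 in young arrays, with 5 of 12 genes called higher in old cells, and NK cell markers to 1.28 to 3.87 and 0.27 to 1.19, with none of 5 called. The part of these cells in the mitosis levels was not tested.

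After stimulation, age was tested over the 4 times of a cell type. In CD4 cells no member was called (0.103% and 0.0103% of all genes higher and lower in old cells; 1 and 0 members unadjusted), with a median of 0.23. In CD8 cells none was called either (0.329% and 0.0823%; 5 and 0 unadjusted), while 41 of 42 differences were above 0 and their median was 0.66. The lowest adjusted p was that of Anln, 1.21 ± 0.37 (SE, adjusted p = 0.34).

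Time by time, with 1 array per age and no replicate check, the medians of the age difference were largest at 72 h and opposite in sign between the cell types. In CD8 cells all 42 members were higher in the old array, 40 of them by 1 log2 unit or more (14.9% of all genes), from 0.53 in Bub3 to 2.43 in Nek2, with a median of 1.73. In CD4 cells 5 of 37 were higher in the old array and 21 lower by 1 unit or more (10.9% of all genes), with a median of -1.09. The array medians over the 35 members measured on all arrays lay closer in CD4 cells, at 1.345 in old and 1.63 in young. In CD8 cells they were 2.99 and 1.51. Array medians at 0 h had a pooled SD of 0.77 within groups. Of the 37 measured in both, 32 were higher in old CD8 and lower in old CD4 cells. Plk1 gave 5.31 and 3.32 in old and young CD8 cells and 2.06 and 3.16 in old and young CD4 cells, and Ube2c 3.71 and 2.10 against 1.86 and 3.46. The ages of each cell type shared a slide at 72 h.

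At 24 h the same comparison gave smaller differences. In CD8 cells 36 of 42 members were higher in the old array and none by 1 unit or more (5.01% of all genes), and in CD4 cells 35 of 41 were higher, 6 by 1 unit or more (11.3%). At 12 h 16 members in CD8 cells (7.39%) and 13 in CD4 cells (22.8%) were higher in the old array by 1 unit or more; at 4 h the counts were 1 (7.58%) and 9 (8.04%). The CD8 arrays at 4 h ran the other way: 10 of 42 members were higher in the old array and 5 lower by 1 unit or more (4.54% of all genes), with a median of -0.36. The old and young CD8 arrays at 12 h were on different slides.

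Members peaked at different times. In young CD8 cells 40 of 42 were lower at 72 than at 24 h (15 by 1 unit or more, against 9.82% of all genes; median -0.89, over all genes 0.01) and 37 peaked at 24 h. In old CD8 cells 38 of 42 were higher at 72 h (5 by 1 unit or more, 17.6% of all genes; median 0.45, over all genes 0.07) and 38 peaked then. In old CD4 cells 36 of 40 were lower at 72 h (27 by 1 unit or more, 22.3%; median -1.28, over all genes 0.10). In young CD4 cells 25 of 38 were higher (5 by 1 unit or more, 18.5%) with a median of 0.23, close to the 59.2% of all genes that were higher and their median of 0.20. The DNA replication list was lower at 72 than at 24 h in all 4 groups, with the same order of ages at 72 h as the mitosis genes: it was at 3.34 and 2.51 in old and young CD8 cells and 2.15 and 3.05 in old and young CD4 cells, after 3.92, 3.96, 4.22 and 3.85 at 24 h. The old CD8 array at 72 h had 17911 probes above background, the lowest outside the 6 CD4 arrays named above. At 72 h, B cell markers summed to 0.57 and 0.81 and myeloid markers to -1.20 and -0.98 in old and young CD8 cells, with 10 and 7 of 12 B cell markers on no array above background, Ms4a1 and Pax5 among them in both; their part was not tested.

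**Figure D5:**
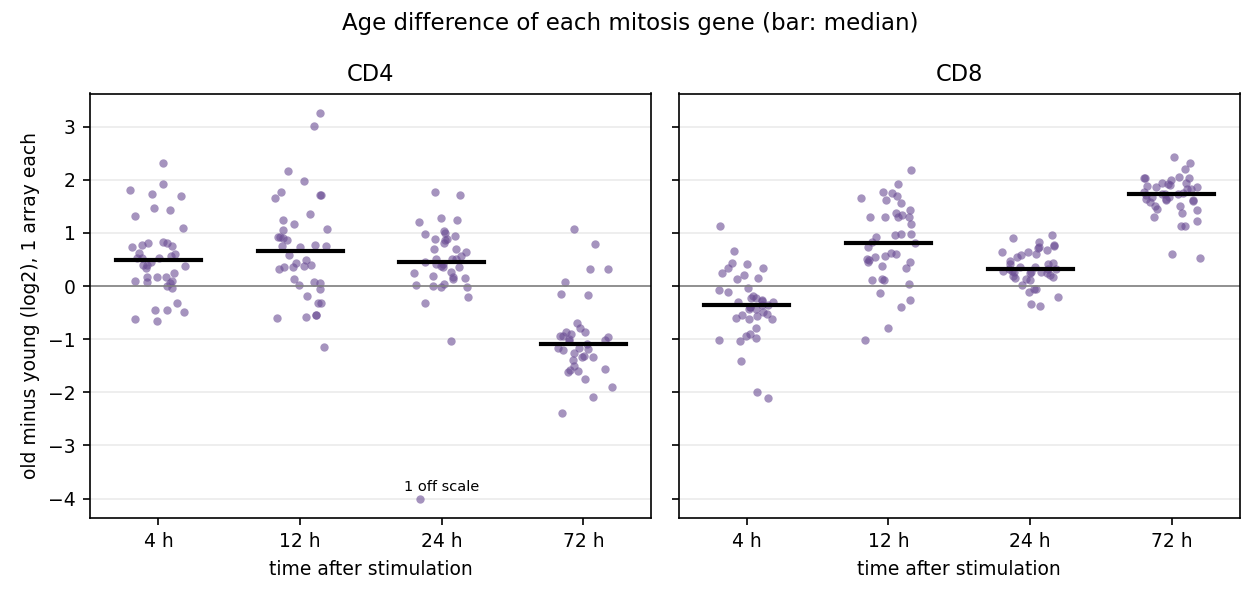
Old minus young level of each mitosis gene (log2, 1 array per age) by time after stimulation in CD4 (left) and CD8 cells (right); bars are medians, and Bub3 at -11.03 in CD4 cells at 24 h is drawn at the edge. At 72 h the points lie mostly below 0 in CD4 cells (median -1.09) and all above 0 in CD8 cells (median 1.73).

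Other genes of the cycle were followed by lists. At 72 h 22.2% of all genes rose and 16.8% fell in CD4 cells, and 13.6% and 14.3% in CD8 cells. Of the mitotic entry regulators 14 of 20 rose at 72 h in CD4 and 16 of 21 in CD8 cells. Cdk1, the kinase of cyclins A and B, rose by 4.39 ± 0.58 (SE, adjusted p = 9.9e-06) and 5.12 ± 0.58 (SE, adjusted p = 3.3e-06). Foxm1 and Mybl2, transcription factors of the G2 programme, rose by 3.99 and 3.76 in CD4 and 3.22 and 4.02 in CD8 cells. The kinase Pbk had the largest change of the list, 5.64 and 5.29; Nek6 rose by 5.07 in CD4 cells, where Nek7 and Lin52 fell (both -1.45). Kinetochore genes rose in 22 of 31 and 21 of 31 cases, led by Ska1 (5.25 and 4.79), with Knl1 at 4.99 in CD4 cells. Spindle genes rose in 16 of 20 and 15 of 20, led by Psrc1 (7.38 and 6.70), with Spag5 at 5.81 in CD4 and Kif14 at 4.96 in CD8 cells.

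Other lists of mitotic machinery had lower medians. The anaphase-promoting complex list rose in 6 of 15 and 4 of 16 cases at 72 h (22.2% and 13.6% of all genes), with a median of 0.51 and 0.42. Condensin and cohesin genes rose in 9 of 18 and 9 of 19 cases with a median of 0.76 and 0.45. In the first, Ube2s (2.33) and Fzr1 (1.86) rose and Cdc23 (-0.78) fell in CD4 cells, while Fbxo5 (2.21) and Pttg1 (2.16) led in CD8 cells. In the second, the condensin subunit Ncapg rose by 5.42 and 5.08, Ncaph by 5.03 in CD4 and Esco2, which acetylates cohesin, by 4.84 in CD8 cells, while the cohesin loader Nipbl fell, changing by -0.85 in CD4 cells.

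DNA replication genes were called earlier than most mitosis genes. At 12 h 35 of 45 rose in CD4 and 38 of 46 in CD8 cells (24.2% and 15.9% of all genes), with medians of 1.91 and 1.90. In each cell type 15 of 42 mitosis genes rose then, with medians of 1.12 and 1.28. At 24 h 44 of 46 and 45 of 46 replication genes rose (all genes: 25.1% and 16%). At 72 h 30 of 45 and 33 of 46 rose (22.2% and 13.6%), with medians of 1.58 and 1.66. Mcm2, of the replicative helicase, rose by 2.85 ± 0.45 (SE, adjusted p = 8.2e-05) and 2.32 ± 0.33 (SE, adjusted p = 5.3e-05) at 12 h, and Pcna, the polymerase clamp, by 2.27 ± 0.28 (SE, adjusted p = 3.5e-06) and 1.58 ± 0.28 (SE, adjusted p = 0.00026). At 72 h Mcm10 rose by 6.02 and 4.86, Orc1 by 5.89 in CD4 and Tk1 by 4.39 in CD8 cells, and Rpa1 fell, changing by -1.69 in CD4 cells. Of the G1 regulators 15 of 28 rose and 3 fell in CD4 cells at 72 h (all genes: 22.2% and 16.8%). In CD8 cells 12 of 30 rose and 5 fell (13.6% and 14.3%). Cdkn1a, the p21 inhibitor, had the largest change, 10.07 and 8.79, with Cdk6 at 5.60 in CD4 and E2f7 at 4.93 in CD8 cells. Ccne1, cyclin E1, rose by 1.77 and 2.45 at 12 h and Ccnd2, cyclin D2, by 1.68 and 1.21; the inhibitor Cdkn1b fell, changing by -1.84 and -1.86 then, and the inhibitor Cdkn2c rose by 1.90 and 1.20 at 24 h. E2f4 (-1.66) and E2f6 (-1.004) fell in CD4 cells and the antiproliferative Tob1 (-2.28) and Foxo1 (-1.31) in CD8 cells.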

How the data were processed

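RNA from CD4 and CD8 T cells was measured on 28 Agilent arrays of 1 colour. The deposited intensity values are Feature Extraction processed signals, background-subtracted by the authors' scanner software per the file headers (version 9.5.1.1 for 10 arrays and 10.1.1.1 for 18). The authors' deposited table of log2 values served as an alternative; its centring is not given in the sources used here. The 18 newer files carry no gene names, which were joined by probe from the other 10.

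Flagged spots were left out, repeat spots averaged, and log2 values centred on each array's 75th percentile. Genes with a probe well above background on 3 or more arrays entered (19443 genes, brightest probe each). Tests used limma 3.58.1 in R 4.3.3 with Benjamini-Hochberg adjustment over all genes, called at 0.05, in 3 fits: 12 arrays at 0 h (age and cell type), all 28 (time within cell type, with an age term), and the 16 stimulated arrays (age). Array number limits precision. A bound ("at least") sets the bright group's mean against the dim group's mean of, per array, the higher of the lowest signal well above background and the probe's own.

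The genes named are the main mitotic markers, every member called between ages or cell types, the extremes and exceptions at 72 h, and for each other list the largest changes at 72 h plus anchor genes; Kif15 and other early members were named after their values were seen. Members and lists were chosen with earlier results of these data known. Same-numbered CD4 arrays at 0 h deviated together (correlations 0.547, 0.486 and 0.683 over genes), but old 1 with young 2 gave 0.447 and old 2 with young 1 gave 0.520, so number and slide cannot be told apart; the CD8 arrays did not. Alternatives changed the scaling, background correction, filter, probe rule, slide block, replicate block, onset threshold, CD8 times and single arrays. The alternative with the CD8 times of the deposited table was added after the data were seen. The fit was tested on simulated data with the spread of the 0 h arrays. For age in CD8 cells at 0 h, 11 of 67 true changes of 1 log2 unit and 36 of 67 of 2 units were called. For age in stimulated CD8 cells the counts were 9 and 43 of 67, and for the difference in change at 72 h 8 and 35 of 67. Most differences of 1 unit would thus go uncalled in these comparisons.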

Additional observations from a re-analysis of the deposited data

Results flagged for a closer look

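Cenpa changed differently in the cell types: its change from 0 h was higher in CD8 than in CD4 cells by 2.63 at 24 h and 2.79 at 72 h (log2), both past the limma threshold for the difference. Scanner changed with time in CD4 cells alone and cannot be told apart from this difference. Both calls were lost with slide as a random block (adjusted p = 0.418 at 24 h and 0.222 at 72 h) and without single arrays (adjusted p up to 0.268 and 0.216 by limma). At 72 h the median old minus young difference of mitosis genes was -1.09 in CD4 cells and 1.73 in CD8 cells, from 1 array per age. The signs were opposite, and this difference between cell types was not tested. The CD4 array medians, 1.345 in old and 1.63 in young cells, lay within the pooled SD of 0.77 of array medians at 0 h. Between 24 and 72 h the median change was 0.23 in young and -1.28 in old CD4 cells and -0.89 in young and 0.45 in old CD8 cells. These had opposite signs by age in each cell type, and the differences were not tested. The young CD4 value was close to the median of all genes, 0.20, and over the 35 members measured on every array the level of that group was 1.69 at 24 h and 1.63 at 72 h.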

How the results depend on the processing

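Of the values of single genes recomputed under alternatives, 748 kept their direction and side of the threshold, 108 lost the call and 4 reversed. The reversed ones were Bub3 at 24 h without the old CD4 array at 24 h (1.06, against -9.61 without the young one) and, with the CD8 times of the deposited table, Prc1 (0.35), Nek2 (0.41) and Espl1 (2.15) at 4 h. Under those times the CD8 calls were 18 at 4 h, 37 at 12 h and 7 at 24 h, and the differences in change between cell types 2, 29 and 38. Counts of called members moved as follows, and the causes were not tested. For age in CD4 cells at 0 h (0 called) quantile normalization and the mean of a gene's probes gave 1 and the slide block 4. For age in CD8 cells at 0 h (2 called) scaling to the median gave 0, no filter 1, the mean of probes 1 and the slide block 5. The age difference between cell types gave 3 with the slide block. CD8 against CD4 cells at 0 h (7) gave 4 with median scaling, 14 with normexp and 2 with slide as a random block. CD4 cells at 4 h (3) gave 6 with normexp; at 12 h (20) they gave 13 with the mean of probes, 7 with the random slide block and 11 with 0 h arrays of the same scanner. CD8 cells at 4 h (7) gave 4 with median scaling and 3 with normexp or the random slide block. For the change between cell types at 24 h (1), quantile normalization gave 2, and normexp, no filter and the random slide block gave 0; at 72 h (1) quantile normalization gave 2 and the random slide block 0. Onset by 12 h moved to 1 (young CD4), 1 (old CD4), 4 (young CD8) and 5 (old CD8) at a threshold of 2 log2 units, and to 15 (old CD4) and 22 (young CD8) at 0.5.

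Leaving out single arrays gave 0 to 1 and 1 to 2 calls for age at 0 h in CD4 and CD8 cells, 0 for their difference, 3 to 19 for CD8 against CD4, 3, 7 to 24, 38 to 41 and 32 to 38 in CD4 cells at 4, 12, 24 and 72 h, 3 to 7, 7 to 19, 37 to 38 and 38 to 39 in CD8 cells, 0, 0, 0 to 1 and 0 to 2 for changes between cell types, and 0 for age after stimulation. With the replicate block the CD4 age count stayed at 0; the CD8 arrays share only a number, and their count went from 2 to 3. Where 0 h spots were not above background, only bounds on folds could be given.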
